A study of Mus musculus with 12 samples.

Results

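The regulators described here are *Nfe2l2*, *Nfe2l1*, *Keap1*, *Bach1*, *Bach2*, *Mafg*, *Mafk*, *Maff* and *Sqstm1*, 9 genes of the 54532 in the deposited expression table. They were chosen by gene name, as the transcription factors and regulators that govern antioxidant and heme-responsive genes, without the enzymes that they regulate. Of these 9 genes, 8 reached an FPKM (fragments per kilobase of gene, scaled to the library) of at least 1 in at least 3 libraries and were among the 12740 genes tested. *Bach2* did not, and is given by its values alone.

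Poly-A mRNA was sequenced from mouse colonoids, which are cultures of colonic epithelial stem cells grown as organoids, here from mice 8 to 12 weeks old. Control colonoids carried floxed *Hmox1* alleles (Hmox1 fl/fl). Those labelled Hmox1 KO carried the floxed alleles together with Vil1-Cre, a recombinase whose Vil1 promoter is active in the intestinal epithelium, so that deletion is limited to epithelial cells. Each line received vehicle or 200 µM hemin, an oxidized form of heme with iron bound to chloride, for 24 h, and 3 libraries were made for each of the 4 groups. The labels do not say whether the libraries of a group came from separate animals or cultures, so the p-values measure only the spread between these libraries, which may be technical. One hemin library labelled KO, replicate 3, has its genotype written as Hmox1 fl/fl with Vil1-Cre.

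*Hmox1*, which encodes the heme-degrading enzyme heme oxygenase 1, was 7.62, 6.85 and 7.90 FPKM in vehicle-treated controls and 3.14, 2.11 and 2.31 in the vehicle-treated colonoids labelled KO. With hemin it was 503, 483 and 382 FPKM in controls and 1279, 1393 and 1271 in those labelled KO. The level under hemin thus goes against the label, and the fragments of a whole gene do not show whether the transcript is intact, so these samples are called "labelled KO" throughout. Every direction between genotypes below rests on that label.

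NRF2, the product of *Nfe2l2*, activates genes of antioxidant defense, glutathione synthesis and iron handling by binding antioxidant response elements. It does so as a dimer with one of the small MAF proteins, MAFG, MAFK or MAFF, which bind DNA but have no activation domain of their own. BACH1 competes for the same elements with the same partners and represses the genes, and heme binds BACH1 and removes it from DNA. KEAP1 holds NRF2 at a low level by delivering it to a ubiquitin ligase, and p62, the product of *Sqstm1*, binds KEAP1. Much of this control acts on proteins, whereas the values here are transcripts.

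Genes of this circuit can themselves be targets of NRF2, as described for *Sqstm1*, *Mafg* and *Nfe2l2*, so the promoters of the regulators were searched for its element. RefSeq promoters of GRCm38.p6, from 250 bases before to 50 after each start, were found for 9 of the 9 genes, 15 promoters in all. The core of the antioxidant response element, TGACNNNGC on either strand, was present in 4 of these 15 promoters and in 12.4% of all 32851 mouse promoters of the same length. The 4 belonged to *Nfe2l2*, *Mafg*, *Mafk* and *Maff*. They are shown because all 3 small MAF genes are among them. Each stretch is written 5′ to 3′ on the strand of its gene, with the matched letters in capitals:
Nfe2l2, chr2:75704880-75704913 (minus strand): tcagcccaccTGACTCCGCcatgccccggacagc
Mafg, chr11:120633746-120633784 (minus strand): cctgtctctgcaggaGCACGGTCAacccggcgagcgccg
Mafk, chr5:139791508-139791546 (plus strand): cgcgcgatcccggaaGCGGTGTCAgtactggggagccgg
Maff, chr15:79346494-79346532 (plus strand): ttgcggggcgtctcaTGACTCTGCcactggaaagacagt

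The match read on the gene's own strand in *Nfe2l2*, 240 to 232 bases before the start, and in *Maff*, 112 to 104 bases before 1 of its 3 annotated starts. In *Mafg*, 222 to 214 bases before the start, and in *Mafk*, 13 to 5 bases before it, the match was on the opposite strand and appears as its reverse complement. The stricter form TGACTCAGC, every instance of which is also an instance of the core, was in 0 of the 15 promoters and in 0.454% of all promoters. These are letter matches only.

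*Sqstm1* was the highest of the regulators, with a mean over all libraries of 138 FPKM, above 97.4% of the genes tested. *Nfe2l2* followed at 73.1 FPKM (above 94.4%) and *Nfe2l1* at 46.1 FPKM (above 90.2%). The other 5 tested regulators had means between 15.4 FPKM for *Maff* and 23.6 FPKM for *Mafk*, above 71.1% to 80.7% of the genes tested. In vehicle-treated controls *Maff*, *Mafk*, *Bach1* and *Mafg* had overlapping levels, between 15.3 and 18.8 FPKM, and the order among them is not resolved. *Nfe2l2* exceeded *Nfe2l1* in every library of 3 groups. In the hemin-treated colonoids labelled KO it did not, with *Nfe2l1* at 54.8 to 61.6 FPKM and *Nfe2l2* at 48.2 to 54.6 FPKM. *Bach2*, a relative of *Bach1* best known in lymphocytes (ENSMUSG00000040270, chr4:32238804-32586108, plus strand), had between 0 and 6 fragments per library, at most 0.053 FPKM, so no fold is given.

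**Figure D1:**
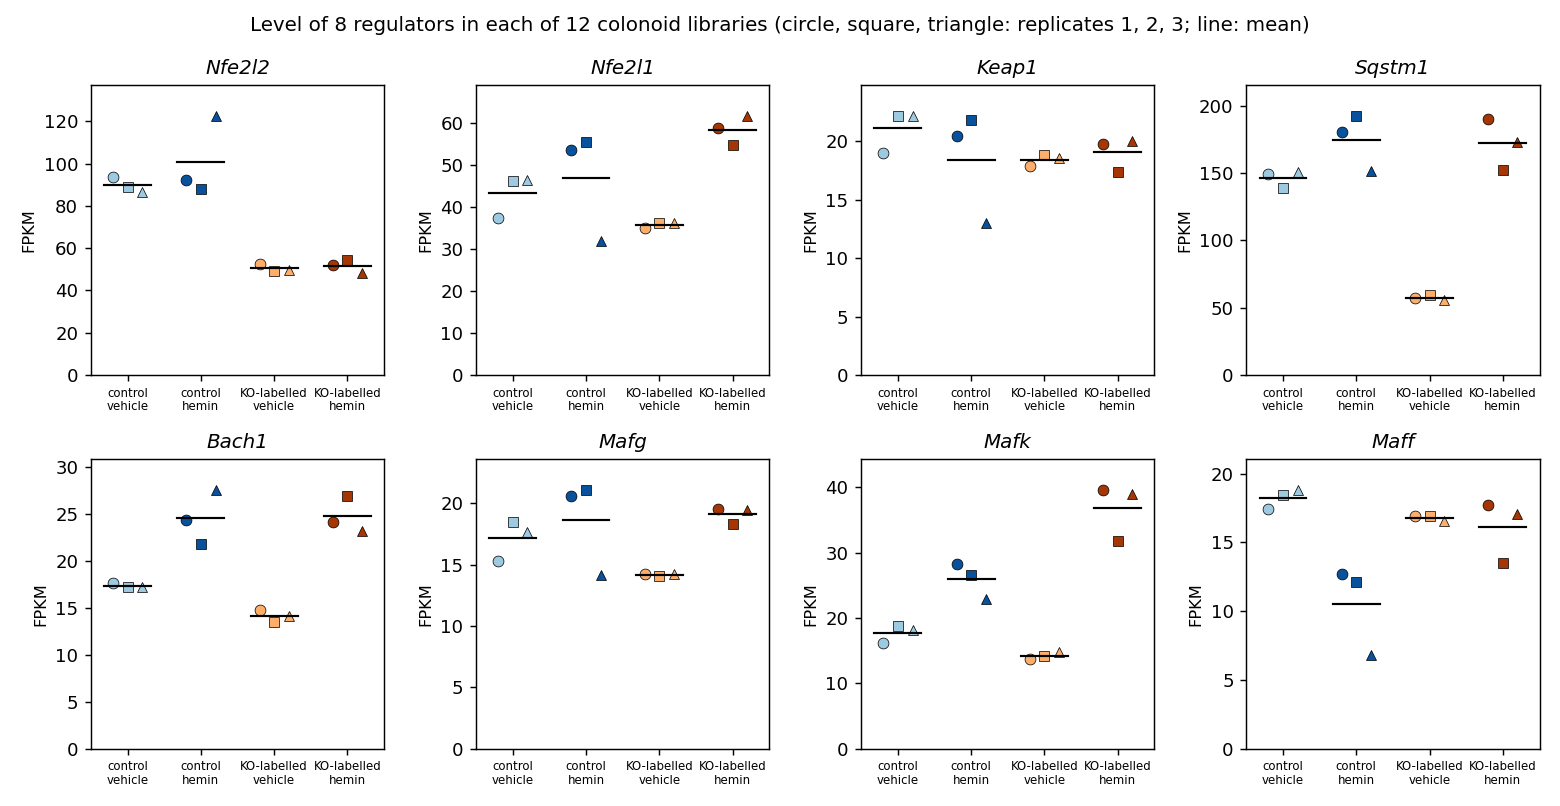
FPKM (y axes, linear, from 0) of the 8 tested regulators in each of the 12 libraries, by group (x axis), with replicates as circle, square and triangle and the group mean as a line. *Sqstm1* is low only in the vehicle-treated colonoids labelled KO (55.7 to 59.5 FPKM), *Nfe2l2* is low in both groups labelled KO (48.2 to 54.6 FPKM), and the triangle of hemin-treated controls lies apart from its group for several genes.

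The libraries held from 11648801 to 25101868 fragments on genes, and each tested regulator had at least 207 fragments in every library. Control hemin replicate 3 stood apart from its group, with correlations of 0.959 and 0.963 with the other hemin-treated controls against 0.985 between those, and of at least 0.984 within every other group. Its mitochondrial share was 4.92% of fragments against 2.29% to 3.74% in the other libraries. By a chi-square of the fragments per gene, KO hemin replicate 2, the deepest library, also differed more from its group (30.6 and 28.9 per degree of freedom, against 3.51 between the other pair), as did control vehicle replicate 1 (18.3 and 17.4, against 2.56). In hemin-treated controls all pairs differed, with 36.11 and 43.15 for replicate 3 and 22.85 between replicates 1 and 2. KO hemin replicate 2 held the lowest value of its group for *Sqstm1*, *Mafk*, *Maff*, *Mafg*, *Nfe2l1* and *Keap1* and the highest for *Bach1* and *Nfe2l2*. All 9 epithelial markers were detected in every library, with a summed level of 6017 to 10650 FPKM. The 6 immune markers summed to at most 5.17 FPKM and the 7 stromal and endothelial markers to at most 0.25 FPKM. The lines differed in *Hoxa13*, *Hoxb13* and *Hoxd13*, genes of distal colon position, which summed to 6.91 to 13.9 FPKM in controls and 194 to 208 FPKM in those labelled KO. *Hoxb13* and *Hoxd13* had 3 fragments or fewer in every control library, so genotype and position along the colon cannot be told apart. The 3 enteroendocrine markers also differed, summing to 16.2 to 28.1 FPKM in controls and 87.6 to 132 FPKM in those labelled KO.

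The hemin comparison in controls asks what heme does to regulator transcripts in cells with *Hmox1*. *Bach1* and *Mafk* rose and *Maff* fell, each by less than 2-fold, while the NRF2 gene itself and its inhibitor *Keap1* did not pass the test. At an adjusted p under 0.05 (limma, Benjamini-Hochberg over all 12740 genes), 2 of 8 regulators were higher against 23.2% of all genes, and 1 was lower against 26.7% of all genes. None was called, which here means that the absolute log2 difference also exceeded 1, against 8.11% of all genes. The median log2 difference of the 8 regulators was 0.12, beside -0.01 for all genes. Differences are on the scale of log2(FPKM + 1), which understates those of low genes, and in bulk RNA fewer cells of a type and less RNA per cell cannot be told apart.

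*Bach1*, the heme-binding repressor (ENSMUSG00000025612, chr16:87698945-87733346, plus strand), was 17.7, 17.3 and 17.2 FPKM with vehicle and 24.4, 21.9 and 27.6 FPKM with hemin in controls. Every hemin library exceeded every vehicle library. The ratio of means was 1.42, with a log2 difference of 0.47 ± 0.08 (SE, limma adjusted p = 0.00082). *Mafk* (ENSMUSG00000018143, chr5:139791513-139802653, plus strand) was 16.2, 18.7 and 18.2 FPKM with vehicle and 28.2, 26.6 and 22.8 FPKM with hemin, again without overlap. Its ratio of means was 1.46 and its log2 difference 0.52 ± 0.10 (limma adjusted p = 0.0013). When the values were rescaled to TPM (each gene's share of all length-scaled fragments, which removes the scaling between libraries carried by the deposited FPKM), the log2 difference was 0.30 for *Bach1* (adjusted p = 0.21) and 0.35 for *Mafk* (adjusted p = 0.20).

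*Maff* (ENSMUSG00000042622, chr15:79346621-79359076, plus strand) went the other way in controls, from 17.4, 18.4 and 18.8 FPKM with vehicle to 12.7, 12.1 and 6.83 FPKM with hemin. The groups did not overlap, and the level with vehicle was 1.73 times that with hemin (log2 difference -0.78 ± 0.18, limma adjusted p = 0.0042). The lowest value was in replicate 3, the library that stood apart. Without it the log2 difference was -0.52 and still past the test (limma adjusted p = 0.00095). *Mafg*, the remaining small MAF gene (ENSMUSG00000051510, chr11:120625117-120633600, minus strand), was 15.3, 18.5 and 17.6 FPKM with vehicle and 20.6, 21.1 and 14.2 FPKM with hemin, and the groups overlapped (log2 difference 0.10, 95% interval -0.18 to 0.38).

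*Nfe2l2* (ENSMUSG00000015839, chr2:75675513-75704641, minus strand) was 93.5, 88.9 and 86.8 FPKM with vehicle and 92.2, 88.0 and 122.5 FPKM with hemin in controls. The groups overlapped except for hemin replicate 3, and the log2 difference was 0.15 (95% interval -0.09 to 0.39, limma adjusted p = 0.27). *Keap1* (ENSMUSG00000003308, chr9:21229730-21239361, minus strand) was 19.0, 22.2 and 22.2 FPKM with vehicle and 20.5, 21.8 and 13.0 FPKM with hemin, with the low value in that same library (log2 difference -0.21, interval -0.56 to 0.13). *Nfe2l1*, which encodes NRF1, an endoplasmic reticulum-bound factor that drives proteasome genes (ENSMUSG00000038615, chr11:96817414-96829968, minus strand), was 37.3, 46.2 and 46.4 FPKM with vehicle and 53.5, 55.4 and 32.0 FPKM with hemin. Here too replicate 3 was below the vehicle libraries and the other hemin libraries above them. *Sqstm1* (ENSMUSG00000015837, chr11:50199366-50210827, minus strand) was 149, 139 and 151 FPKM with vehicle and 181, 192 and 152 FPKM with hemin, a log2 difference of 0.25 (interval 0.03 to 0.47, limma adjusted p = 0.058).

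Several values of hemin-treated controls thus turned on 1 library. Without control hemin replicate 3, the number past the adjusted p was 6 in place of 3, and over all 12740 genes tested it was 7208 in place of 6359. The genes added were *Nfe2l1* (log2 difference 0.33, limma adjusted p = 0.0093), *Mafg* (0.27, adjusted p = 0.0074) and *Sqstm1* (0.35, adjusted p = 0.0053), each higher with hemin. *Keap1* then had a log2 difference of 0.005.

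In the colonoids labelled KO, 5 of the 8 regulators rose with hemin. *Sqstm1* and *Mafk* rose by over 2-fold and *Bach1*, *Nfe2l1* and *Mafg* by less, while the values of *Nfe2l2* and *Keap1* overlapped between vehicle and hemin. The 5 higher regulators stand against 29.9% of all genes, the 0 lower ones against 30.4%, and the 2 called against 12.9%. The median log2 difference of the regulators was 0.55, beside 0.00 for all genes.

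*Sqstm1* was 57.2, 59.5 and 55.7 FPKM with vehicle and 190.4, 153 and 173 FPKM with hemin in the colonoids labelled KO. The ranges were far apart, the ratio of means was 2.99 and the log2 difference 1.56 ± 0.10 (limma adjusted p = 2.3e-07). The level reached with hemin, 172 ± 18.9 FPKM (SD, n = 3), lay in the same range as that of hemin-treated controls, 175 ± 21.0 FPKM (SD, n = 3). *Mafk* was 13.6, 14.2 and 14.8 FPKM with vehicle and 39.6, 31.8 and 38.9 FPKM with hemin. The lowest hemin value was above every other group's *Mafk* level, the ratio of means was 2.59 and the log2 difference 1.31 ± 0.10 (limma adjusted p = 1e-06).

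*Bach1* rose from 14.8, 13.5 and 14.1 FPKM to 24.1, 26.9 and 23.2 FPKM in those labelled KO, a ratio of means of 1.75 (log2 difference 0.77 ± 0.08, limma adjusted p = 1.6e-05). *Nfe2l1* rose from 34.9, 36.1 and 36.1 FPKM to 58.6, 54.8 and 61.6 FPKM, a ratio of 1.63 (0.69 ± 0.17, adjusted p = 0.0053). *Mafg* rose from 14.2, 14.1 and 14.3 FPKM to 19.5, 18.3 and 19.4 FPKM, a ratio of 1.35 (0.40 ± 0.13, adjusted p = 0.017). None of these 3 had overlapping groups. With rescaling to TPM the log2 differences were smaller, 0.46 for *Bach1* (adjusted p = 0.039), 0.36 for *Nfe2l1* (adjusted p = 0.20) and 0.09 for *Mafg* (adjusted p = 0.75). With *Gm23935*, 1 abundant gene, left out of the TPM sum, *Mafg* was at 0.20 (adjusted p = 0.22). Without KO hemin replicate 2 the same 5 regulators passed for hemin in those labelled KO, *Sqstm1* at 1.64, *Mafk* at 1.40, *Bach1* at 0.71, *Nfe2l1* at 0.73 and *Mafg* at 0.43.

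The other regulators did not pass. *Nfe2l2* was 52.6, 49.1 and 49.4 FPKM with vehicle and 51.8, 54.6 and 48.2 FPKM with hemin, and its log2 difference of 0.03 had a 95% interval from -0.21 to 0.27. *Keap1* was 17.9 to 18.8 FPKM with vehicle and 17.4 to 20.0 FPKM with hemin (0.04, interval -0.30 to 0.38). *Maff* was 16.9, 16.9 and 16.6 FPKM with vehicle and 17.7, 13.5 and 17.0 FPKM with hemin (-0.07, interval -0.47 to 0.33). Neither the NRF2 gene nor the KEAP1 gene thus showed a change in transcript past the test under hemin, in either genotype.

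Cell type markers also differed between vehicle and hemin. The 3 crypt base markers summed to 5.33 to 7.85 FPKM with vehicle and 1.16 to 1.46 FPKM with hemin in controls, and to 15.2 to 16.3 FPKM and 1.55 to 2.50 FPKM in those labelled KO. The 5 goblet cell markers summed to 1271 to 1499 FPKM with vehicle and 752 to 1098 FPKM with hemin in controls, and to 1786 to 1873 FPKM and 360 to 409 FPKM in those labelled KO, while the 4 colonocyte markers were higher with hemin in both. In those labelled KO the epithelial markers summed to 6017 to 6069 FPKM with vehicle and 7949 to 9309 FPKM with hemin, and the enteroendocrine markers to 128 to 132 FPKM and 87.6 to 99.4 FPKM. The part of these shifts in the regulator values was not tested.

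**Figure D2:**
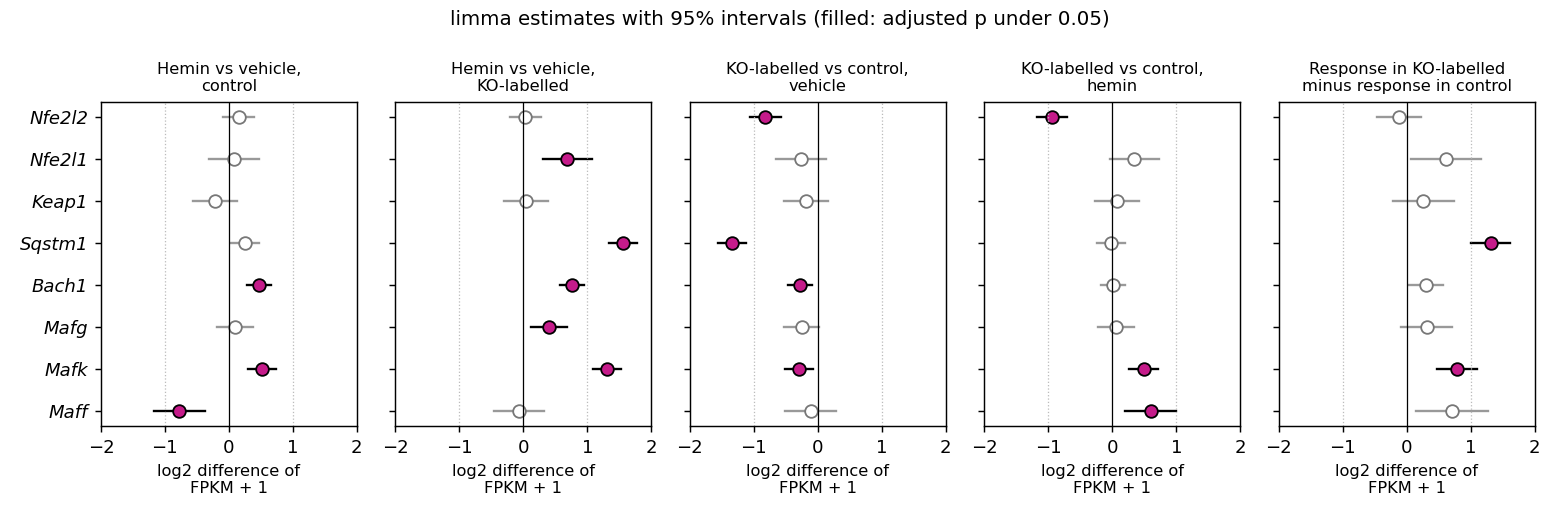
limma log2 differences of FPKM + 1 (x axes) with 95% intervals for 8 regulators (rows) in the 5 comparisons (panels), filled where the adjusted p is under 0.05 and with dotted lines at the log2 threshold of 1 in either direction. *Nfe2l2* lies at -0.82 and -0.94 between genotypes and at 0.15 and 0.03 for hemin against vehicle. *Sqstm1* and *Mafk* lie at 1.56 and 1.31 for hemin against vehicle in the colonoids labelled KO.

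With vehicle, the comparison of genotypes asks whether the regulators differ before any heme is added. *Nfe2l2* and *Sqstm1* were lower in the colonoids labelled KO, and *Bach1* and *Mafk* were lower by a small amount. Of the 8 regulators 0 were higher (17.4% of all genes), 4 were lower (16.8% of all genes) and 1, *Sqstm1*, was called (6.8% of all genes). The median log2 difference was -0.27, beside 0.02 for all genes. Between the same groups the epithelial markers summed to 8574 to 9537 FPKM in controls and 6017 to 6069 FPKM in those labelled KO, the enteroendocrine markers to 22.1 to 28.1 and 128 to 132 FPKM, the goblet cell markers to 1271 to 1499 and 1786 to 1873 FPKM, and the crypt base markers to 5.33 to 7.85 and 15.2 to 16.3 FPKM. Their part in the regulator values was not tested.

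*Sqstm1* was 2.55 times as high in vehicle-treated controls (139 to 151 FPKM) as in those labelled KO (55.7 to 59.5 FPKM), a log2 difference of -1.33 ± 0.10 (limma adjusted p = 1.4e-06). For *Nfe2l2* the ratio was 1.78, from 89.7 ± 3.46 FPKM in controls to 50.4 ± 1.92 FPKM in those labelled KO (SD, n = 3), with a log2 difference of -0.82 ± 0.11 (limma adjusted p = 0.00014). Neither gene had overlapping groups. *Bach1* (log2 difference -0.28, adjusted p = 0.023) and *Mafk* (-0.29, adjusted p = 0.043) did not overlap between the groups either, but their calls were less stable, and over the 21 alternative settings *Bach1* stayed past the test in 14 and *Mafk* in 11. With the replicate number as a block the adjusted p of *Mafk* was 0.081. The intervals of the others were -0.65 to 0.12 for *Nfe2l1*, -0.52 to 0.16 for *Keap1*, -0.53 to 0.03 for *Mafg* and -0.51 to 0.29 for *Maff*. *Nfe2l1* and *Mafg* passed without control hemin replicate 3 (limma adjusted p = 0.021 and 0.0074) and with only the groups compared (0.044 and 0.023), at the same log2 differences of -0.26 and -0.25. Each passed in only these 2 of the 21 alternative settings.

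With hemin, *Nfe2l2* was again lower in the colonoids labelled KO, whereas *Mafk* and *Maff* were higher and *Sqstm1* and *Bach1* did not pass the test. Of 8 regulators 2 were higher (19.7% of all genes), 1 was lower (14.7% of all genes) and 0 were called (6.01% of all genes), and the median log2 difference was 0.06 beside 0.04 for all genes. *Nfe2l2* was 1.96 times as high in controls, with 88.0 to 122.5 FPKM against 48.2 to 54.6 FPKM (log2 difference -0.94 ± 0.11, limma adjusted p = 5.2e-05). *Mafk* was 22.8 to 28.2 FPKM in controls and 31.8 to 39.6 FPKM in those labelled KO, without overlap (0.49 ± 0.10, adjusted p = 0.0031). Between the same groups the goblet cell markers summed to 752 to 1098 and 360 to 409 FPKM, and the colonocyte markers to 4021 to 6397 and 3115 to 3882 FPKM. The enteroendocrine markers summed to 16.2 to 26.0 and 87.6 to 99.4 FPKM, and the crypt base markers to 1.16 to 1.46 and 1.55 to 2.50 FPKM. The epithelial sums overlapped. The part of these markers in the regulator values was not tested.

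*Maff* was 6.83 to 12.7 FPKM in controls and 13.5 to 17.7 FPKM in those labelled KO, also without overlap (0.60 ± 0.18, limma adjusted p = 0.024). The lowest value was again control hemin replicate 3, and without that library the log2 difference was 0.34 (adjusted p = 0.014). It stayed past the test in 16 of 21 alternative settings. It did not pass under TPM, with only the groups compared (limma adjusted p = 0.13) or with no filter (0.059). Nor did it pass without KO hemin replicate 1 (adjusted p = 0.085) or replicate 3 (adjusted p = 0.079). Rescaling to TPM gave log2 differences of about the same size, 0.50 for *Mafk* (adjusted p = 0.11) and 0.63 for *Maff* (adjusted p = 0.068). The interval of the log2 difference was -0.24 to 0.20 for *Sqstm1* and -0.17 to 0.20 for *Bach1*, so a difference of 1 on the log2 scale lies outside both. For *Nfe2l1* it was -0.04 to 0.73, for *Keap1* -0.26 to 0.42 and for *Mafg* -0.23 to 0.33.

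The interaction term asks whether the hemin response itself differed between the genotypes. It was larger in the colonoids labelled KO for *Sqstm1*, by 1.31 ± 0.14 on the log2 scale (limma adjusted p = 7.3e-05), and for *Mafk*, by 0.78 ± 0.14 (adjusted p = 0.0024). For *Sqstm1* the responses were 0.25 in controls and 1.56 in those labelled KO, from starting levels of 147 ± 6.43 and 57.5 ± 1.89 FPKM (SD, n = 3) that already differed. For *Mafk* they were 0.52 and 1.31, and rescaling to TPM left the difference at 0.66 with an adjusted p of 0.20.

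Of the 8 regulators 2 were thus higher in the interaction (13.3% of all genes), 0 were lower (10.5% of all genes) and 1 was called (5.13% of all genes), with a median of 0.46 beside 0.02. *Maff* had an interaction of 0.71 (interval 0.15 to 1.27, limma adjusted p = 0.068), *Nfe2l1* of 0.61 (0.07 to 1.15, adjusted p = 0.10) and *Bach1* of 0.30 (0.03 to 0.56, adjusted p = 0.10). Without control hemin replicate 3 these passed, with 0.45 for *Maff* (adjusted p = 0.019), 0.36 for *Nfe2l1* (adjusted p = 0.038) and 0.38 for *Bach1* (adjusted p = 0.011), so 5 regulators did, while the number over all genes went from 3031 to 4726. *Maff* also passed without control hemin replicate 1 (0.85, adjusted p = 0.034), without replicate 2 (0.82, adjusted p = 0.045) and with limma-voom on recovered fragments (0.75, adjusted p = 0.036), and *Nfe2l1* without replicate 2 (0.75, adjusted p = 0.047). Of the 20 alternative settings, the interaction was past the test in only 4 for *Maff*, 2 for *Nfe2l1* and 1 for *Bach1*. The interaction of *Nfe2l2* was -0.12 with an interval from -0.46 to 0.22.

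The small MAF partners also changed in their proportions. Summed over *Mafg*, *Mafk* and *Maff*, their FPKM were 48.9, 55.6 and 54.6 in vehicle-treated controls and 61.5, 59.8 and 43.8 in hemin-treated controls, with overlap. In those labelled KO the sum was 44.7, 45.2 and 45.6 FPKM with vehicle and 76.9, 63.6 and 75.4 FPKM with hemin, the highest of the 4 groups. These sums and shares were not tested. With vehicle the 3 genes had near-equal shares, with *Mafk* at 33.1% to 33.6% of the sum in controls and 30.5% to 32.4% in those labelled KO.

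With hemin *Mafk* was 44.5% to 52.1% of the small MAF sum in controls and 49.98% to 51.6% in those labelled KO, above every vehicle library. *Maff* was 33.1% to 35.6% with vehicle and 15.6% to 20.6% with hemin in controls, and 36.3% to 37.8% and 21.2% to 23.1% in those labelled KO. The share of *Maff* was thus lower with hemin in both genotypes, although its own FPKM passed the test only in controls. *Mafg* stayed at 31.1% to 35.3% in 3 groups and was 25.4% to 28.8% in the hemin-treated colonoids labelled KO.

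**Figure D3:**
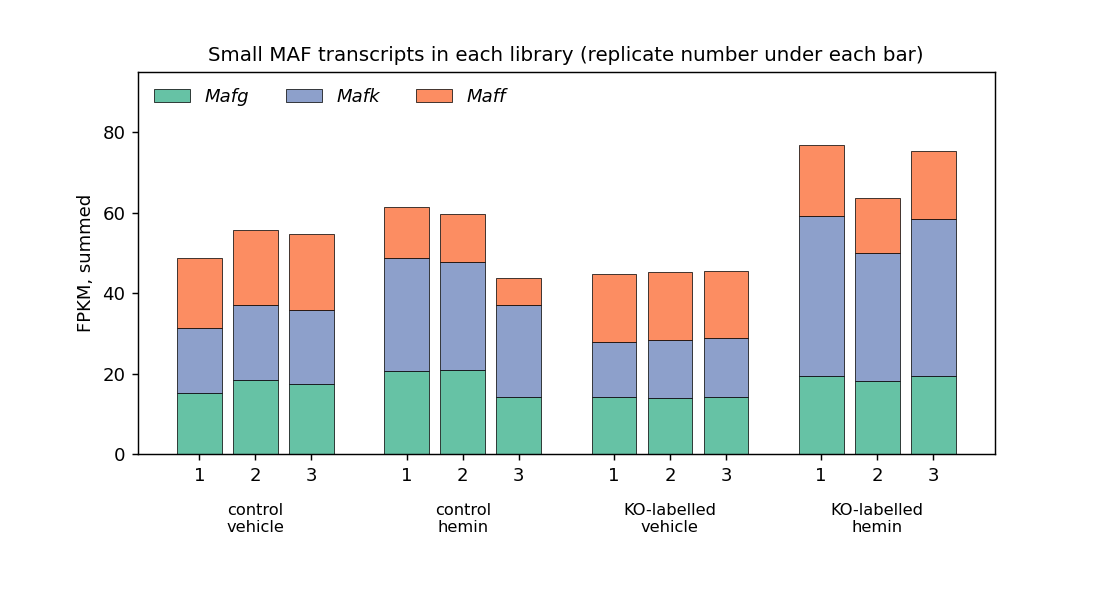
Stacked FPKM (y axis, from 0) of *Mafg*, *Mafk* and *Maff* in each of the 12 libraries (bars, with the replicate number below). *Mafk* fills 30.5% to 33.6% of the bar with vehicle and 44.5% to 52.1% with hemin, and the bars of hemin-treated colonoids labelled KO are the tallest, at 63.6 to 76.9 FPKM.

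The ratio of the activator's transcript to that of the competing repressor separated all 4 groups. *Nfe2l2* FPKM over *Bach1* FPKM was 5.04 to 5.28 in vehicle-treated controls, 3.79 to 4.44 in hemin-treated controls, 3.50 to 3.65 in vehicle-treated colonoids labelled KO and 2.03 to 2.15 in hemin-treated colonoids labelled KO. No library of one group fell within the range of another. The ratio needs no scaling between libraries, and it carries no test here. The ratio of *Nfe2l2* to *Keap1* was 3.91 to 4.93 in vehicle-treated controls and 2.61 to 2.93 in vehicle-treated colonoids labelled KO. With hemin it was 4.50, 4.03 and 9.41 in controls, the last in replicate 3, and 2.41 to 3.13 in those labelled KO, so vehicle and hemin overlapped within each genotype.

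**Figure D4:**
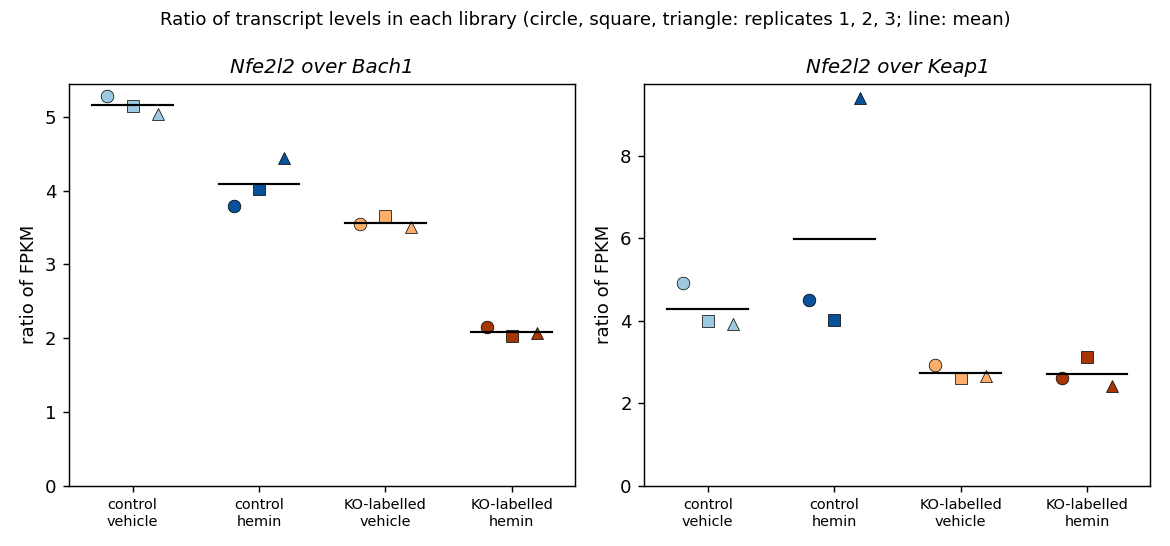
Ratio of *Nfe2l2* FPKM to *Bach1* FPKM (left) and to *Keap1* FPKM (right), y axes from 0, in each library by group, with the group mean as a line. The left ratio runs from 5.04 to 5.28 in vehicle-treated controls to 2.03 to 2.15 in hemin-treated colonoids labelled KO with no overlap, and in the right panel control hemin replicate 3 stands alone at 9.41.

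Other genes of the regulators' machinery, a list of 28 with 24 tested, moved in both directions. The list holds the ligase partners of KEAP1, enzymes that process NRF1, kinases, coactivators, autophagy receptors and other related factors. With hemin 8 were higher and 2 lower in controls, and 15 were higher and 3 lower in those labelled KO, with medians of 0.13 and 0.28 on the log2 scale, beside -0.01 and 0.00 for all genes. Over all genes 23.2% were higher and 26.7% lower in controls, and 29.9% and 30.4% in those labelled KO. *Nbr1*, an autophagy receptor related to *Sqstm1*, rose by 0.66 in both genotypes (limma adjusted p = 2e-05 in controls and 1.2e-05 in those labelled KO). *Map1lc3b*, an autophagosome protein that p62 binds, rose by 0.83 in controls (adjusted p = 3.8e-06), and its response in those labelled KO was smaller (interaction -0.50, adjusted p = 0.0044).

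*Rbx1*, a subunit of the ligase that KEAP1 serves, rose by 0.51 in controls (limma adjusted p = 0.002), and *Ngly1*, a glycanase that processes NRF1, rose by 0.61 in those labelled KO (adjusted p = 0.00047). *Palb2*, whose product can bind KEAP1, fell by 0.65 in controls and fell by 0.50 in those labelled KO. *Nfe2l3*, a CNC factor related to *Nfe2l1*, fell by 0.30 in controls and fell by 0.64 in those labelled KO, and *Amer1*, whose product can also bind KEAP1, fell by 0.81 in those labelled KO. Between genotypes 4 of the 24 were higher and 4 lower with vehicle, and 5 were higher and 3 lower with hemin, against 17.4% and 16.8% of all genes with vehicle and 19.7% and 14.7% with hemin. Without control hemin replicate 3, 8 were lower with vehicle and 8 were higher with hemin. The interaction was positive for 4 and negative for 2 of the 24, against 13.3% and 10.5% of all genes, and with that library left out for 9 and 3. Leaving it out raised the number past the adjusted p over all genes too, from 4362 to 5821 with vehicle, from 4383 to 5483 with hemin and from 3031 to 4726 for the interaction.

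Beside the regulators, 24 genes that NRF2 activates or BACH1 represses were read from the same fit, all tested. The list includes *Hmox1*, the targeted gene, whose level under hemin goes against the label, and all counts below include it. Like the other lists, it was chosen with earlier results of these data known, so its counts are not independent of these data. With hemin 21 rose and 1 fell in controls and 24 of 24 rose in those labelled KO, with median log2 differences of 1.01 and 1.90, whereas all genes had medians of -0.01 and 0.00. Over all genes 23.2% rose and 26.7% fell in controls, and 29.9% and 30.4% in those labelled KO. *Nqo1*, a quinone reductase, rose by 3.06 in controls and by 4.71 in those labelled KO, and *Gclc*, the catalytic subunit of glutamate-cysteine ligase, by 2.66 and 4.61. *Ephx1*, an epoxide hydrolase, was the 1 that fell in controls, by 0.58 (limma adjusted p = 0.00019).

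Between genotypes most target genes that passed the test were lower in the colonoids labelled KO with vehicle and higher with hemin. With vehicle 15 of 24 were lower and 0 higher in the colonoids labelled KO, against 16.8% and 17.4% of all genes, and with hemin 19 were higher and 1 was lower, against 19.7% and 14.7%. Without control hemin replicate 3 these were 16 lower and 1 higher with vehicle, and 18 higher and 2 lower with hemin. *Hmox1* was one of the genes lower with vehicle and one of those higher with hemin. The 1 lower gene was *Me1*, encoding malic enzyme, which had log2 differences of -3.83 with vehicle and -1.69 with hemin. *Slc7a11*, the cystine transporter, was higher by 1.40 with hemin in those labelled KO (limma adjusted p = 6.8e-07), and 21 of 24, *Hmox1* among them, had a positive interaction, against 13.3% of all genes. Over the same comparison under hemin, *Nfe2l2* itself was lower in those labelled KO and *Bach1* did not differ past the test.

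Proteasome genes bound by NRF1 were a list of 14, all tested. With hemin 2 rose in controls and 7 in those labelled KO, with medians of 0.02 and 0.22, against 23.2% and 29.9% of all genes higher. None fell with all libraries in the fit, against 26.7% and 30.4% of all genes, and 2 fell in controls without control hemin replicate 3. *Pomp*, a proteasome assembly factor, rose by 0.52 in controls (limma adjusted p = 0.00013) and by 0.58 in those labelled KO (adjusted p = 4e-05). *Psma3* rose by 0.69 and *Psmd1* by 0.48 in those labelled KO, where *Nfe2l1* also rose. With vehicle 0 of 14 differed between genotypes at an adjusted p under 0.05, against 17.4% of all genes higher and 16.8% lower, and with hemin 6 were higher in those labelled KO, *Psmb7* by 0.44 and *Psmb5* by 0.41, against 19.7% of all genes. Leaving out control hemin replicate 3 gave 11 in place of 7 higher with hemin in those labelled KO, 1 in place of 0 higher in those labelled KO with vehicle, and 6 in place of 2 with a positive interaction. The 2 of 14 stand against 13.3% of all genes, and over all genes, on leaving out that library, the number past the adjusted p went from 7694 to 8770 for hemin in those labelled KO and from 3031 to 4726 for the interaction.

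The genes nearest in pattern to the 2 regulators that were called were found by the root mean square difference of log2(FPKM + 1) over the 12 libraries, after each gene's mean was subtracted. For *Mafk*, whose own spread on that measure was 0.511, they were *Slc22a18* at 0.068, *Arhgap27* at 0.072 and *Dnajb2* at 0.080. For *Sqstm1*, with an own spread of 0.661, they were *Lpin2* at 0.170, *Slc25a20* at 0.174 and *Plaur* at 0.183. *Mafk* thus had closer neighbors than *Sqstm1*.

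Several regulators share bases with another gene, and the strand setting of the counting is not given in the sources used here. *Mafg* shares 124 bases with *Sirt7* on the same strand (12.1 to 31.6 FPKM), *Mafk* 169 bases with *Tmem184a* on the opposite strand (2.97 to 5.76 FPKM), *Sqstm1* 750 bases with *Mrnip* on the opposite strand (0.588 to 1.38 FPKM) and *Keap1* 3317 bases with the antisense gene *Gm16754* (0.336 to 0.986 FPKM). Fragments from shared bases cannot be assigned with certainty to one gene.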

How the data were processed

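RNA of 12 colonoid libraries was prepared and sequenced by Novogene. The submitters' processing notes name fastp, HISAT2 2.0.5, featureCounts 1.5.0-p3 and the build mm10, with no role or order. The authors deposited FPKM for 54532 genes together with each gene's coordinates and length, and the deposited FPKM carry a scaling between libraries. FPKM times gene length gave whole multiples of 1 fragment for 100% of values (tolerance 0.001 fragments), from which fragments were recovered. At most 3 fragments per library counted as the floor, which covers counting error only.

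From the FPKM on, everything was computed here. The filter kept 12740 genes that reached an FPKM of 1 in 3 or more libraries. limma 3.58.1 (R 4.3.3) was fitted to log2(FPKM + 1) over all 12 libraries with 1 mean per group and a trended empirical Bayes step, and all adjusted p-values are its Benjamini-Hochberg values over all genes tested. Ratios are of mean FPKM. Promoters are those of RefSeq. The functions were tested on simulated data.

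The regulators, the 3 gene lists and the markers were chosen with earlier results of these data known, and the lists carry no test of their own. Named genes are the regulators and *Hmox1*, of each list up to 3 largest increases and 3 largest decreases past the adjusted p per comparison, and the 3 nearest patterns of each called regulator, of which 1 gene is not reported here. Alternatives were a pseudocount of 0.1, no filter, a mean FPKM of at least 5, TPM with and without *Gm23935*, the replicate number as a block, no trend, only the groups compared, limma-voom on recovered fragments, and leaving out every library singly. The list counts without control hemin replicate 3 were added after seeing the data.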

Additional observations from a re-analysis of the deposited data

Results flagged for a closer look

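For 2 regulators the hemin response differed between the genotypes by the interaction test. The response of *Mafk* was larger in the colonoids labelled KO by 0.78 on the log2 scale (limma adjusted p = 0.0024), and hemin exceeded vehicle in every library of both genotypes. The response of *Sqstm1* was larger by 1.31 (adjusted p = 7.3e-05). Groups of 3 libraries are too small for a test of single outlying libraries.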

How the results depend on the processing

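*Sqstm1* and *Mafk* for hemin in the colonoids labelled KO, *Bach1* there, *Maff* for hemin in controls, and *Sqstm1* with vehicle and *Nfe2l2* under both treatments between genotypes were past the adjusted p in all 21 alternatives, as was the interaction of *Sqstm1* in all 20. Rescaling to TPM moved the median log2 difference of all genes to -0.19 for hemin in controls, -0.31 for hemin in those labelled KO, 0.16 between genotypes with vehicle and -0.11 for the interaction, and other changes under TPM are relative to that shift. Under TPM the regulators past the adjusted p numbered 1 for hemin in controls, 3 for hemin in those labelled KO, 2 with vehicle (also 2 when *Gm23935* was left out of the TPM sum), 1 between genotypes under hemin and 1 for the interaction. Under TPM 1 was called for hemin in controls, and 1 between genotypes under hemin when *Gm23935* was left out. Signs turned only for values that passed in neither setting. For hemin in controls TPM gave -0.038 for *Nfe2l2*, -0.11 for *Nfe2l1* (-0.026 without *Gm23935*) and -0.09 for *Mafg* (-0.007 without it). For hemin in those labelled KO it gave -0.31 for *Nfe2l2* (-0.19 without it) and -0.29 for *Keap1* (-0.18 without it), between genotypes with vehicle 0.032 for *Maff*, and under hemin -0.04 for *Bach1* without *Gm23935*. The causes were not tested.

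With 1 library left out in turn, the regulators past the adjusted p ranged from 3 to 6 for hemin in controls, from 2 to 6 between genotypes with vehicle and from 2 to 5 for the interaction, and those called between genotypes under hemin from 0 to 1. Log2 differences that crossed 0 ranged from -0.056 to 0.33 for *Nfe2l1* and from -0.35 to 0.005 for *Keap1* for hemin in controls, and from -0.01 to 0.077 for *Nfe2l2* and from -0.14 to 0.047 for *Maff* for hemin in those labelled KO. Under hemin between genotypes they ranged from -0.14 to 0.21 for *Keap1*, from -0.067 to 0.10 for *Bach1*, from -0.12 to 0.15 for *Mafg* and from -0.12 to 0.061 for *Sqstm1*, and for the interaction of *Nfe2l2* from -0.21 to 0.025. The counts of 6 for hemin in controls and with vehicle, and that of 5 for the interaction, were without control hemin replicate 3, and that of 2 with vehicle was without replicate 2 or 3 of either vehicle group.

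Replicate numbers recur across groups. Deviations of same-numbered libraries from their group means had a mean correlation of -0.04 (from -0.33 to 0.18), so the numbers were not taken as pairs. With the replicate block the regulators past the adjusted p numbered 3, 5, 3, 3 and 2 in the order of the report, and the 1 lost was *Mafk* between genotypes with vehicle (-0.29, limma adjusted p = 0.081). With 3 libraries a group, a difference whose interval includes 0 was not resolved from none, and transcripts do not measure the proteins.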
